A study of Mus musculus with 26 samples.

Results

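The Hedgehog pathway was followed here through 9 genes, namely the ligands Shh, Ihh and Dhh, the membrane proteins Ptch1, Smo and Hhip, and the transcription factors Gli1, Gli2 and Gli3. A region of a deposited table was assigned to a gene when it overlapped 1.5 kb either side of one of its start sites in the mm10 mouse genome, and the region with the most overlap was kept for each gene and table. These 9 genes are among 23828 genes with such a region in at least 1 of 12 tables.

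Bivalent chromatin, in which a nucleosome carries both the active-associated mark H3K4me3 and the inactive-associated mark H3K27me3, was profiled in mouse embryonic stem cells by sequential ChIP (reChIP). In K4-K27 the chromatin recovered with the H3K4me3 antibody was precipitated again for H3K27me3, K27-K4 used the opposite order, and 10% of the chromatin was set aside after the first ChIP to give the total of each mark (total H3K4me3 or H3K27me3). The cells were non-clonal E14 cells of wild-type genotype in replicates 1 and 2, WT clones 57 and 58, and DKO clones 43 and 53, which lack Dppa2 and Dppa4. All of them share the E14 background and were grown in serum and LIF with no other agent. Each clone is 1 line, so a feature of a clone and an effect of the genotype are told apart by only 2 clones per genotype. E14 replicates 1 and 2 and the clones are labelled as different sequencing batches, so E14 and clone values differ in batch as well as in cells and these cannot be told apart. Some of the signal of the H3K4me3 antibody may come from H3K4me2, which it is known to bind as well.

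Hedgehog ligands are secreted proteins that pattern the embryo. Without a ligand, the receptor Ptch1 holds Smo inactive and Gli3, and to a lesser degree Gli2, are processed into repressors. When a ligand binds Ptch1, Smo is released and full-length Gli2 and Gli3 activate targets, among them Ptch1, Hhip and Gli1, while Hhip binds the ligands at the cell surface. Shh acts in the neural tube and limb, Ihh in cartilage and endoderm and Dhh in the gonad and peripheral nerve, and genes of this developmental kind often carry both marks in embryonic stem cells.

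Promoter sequences of 4 members are shown because they span the range of CpG content, a feature of DNA on which bivalent chromatin is known to form. Each is the 250 bases before the start site from RefSeq (GRCm38.p6), read 5′ to 3′ on the strand of the gene, with CpG dinucleotides in capitals. They lie on the minus strand, Ihh at chr1:74951673-74951922, Dhh at chr15:98898541-98898790, Ptch1 at chr13:63565736-63565985 and Gli2 at chr1:119053620-119053869.
Ihh: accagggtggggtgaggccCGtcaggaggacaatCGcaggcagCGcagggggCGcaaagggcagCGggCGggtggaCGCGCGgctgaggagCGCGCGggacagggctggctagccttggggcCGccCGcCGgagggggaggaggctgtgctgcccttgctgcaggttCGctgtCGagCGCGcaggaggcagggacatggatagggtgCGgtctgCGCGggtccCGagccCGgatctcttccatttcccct
Dhh: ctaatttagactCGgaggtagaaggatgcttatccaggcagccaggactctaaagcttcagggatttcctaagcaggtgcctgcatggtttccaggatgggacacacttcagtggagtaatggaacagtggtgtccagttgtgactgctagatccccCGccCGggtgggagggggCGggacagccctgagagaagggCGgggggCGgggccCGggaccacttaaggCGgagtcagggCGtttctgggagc
Ptch1: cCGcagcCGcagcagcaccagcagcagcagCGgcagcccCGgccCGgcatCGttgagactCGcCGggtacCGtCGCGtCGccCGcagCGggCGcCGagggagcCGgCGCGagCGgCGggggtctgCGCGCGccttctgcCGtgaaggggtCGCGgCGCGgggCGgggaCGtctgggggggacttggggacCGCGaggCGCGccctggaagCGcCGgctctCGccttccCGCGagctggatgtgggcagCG
Gli2: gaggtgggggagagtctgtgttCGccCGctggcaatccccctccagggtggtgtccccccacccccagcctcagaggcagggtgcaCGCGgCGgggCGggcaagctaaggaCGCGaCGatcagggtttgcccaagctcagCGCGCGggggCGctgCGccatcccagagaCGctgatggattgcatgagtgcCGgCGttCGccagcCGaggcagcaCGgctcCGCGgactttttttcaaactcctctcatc

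RefSeq promoter entries matched 7 of the 9 members, and those of Shh and Gli1 were not used here. Ptch1 had the most CpG dinucleotides, 41 in 250 bases, more than 98.9% of the 32851 promoters of this length. Gli3 had 34, Hhip 28, Ihh 24, Gli2 22 and Smo 15. Dhh had 9, against a median of 6 over all promoters. The GLI site GACCACCCA, searched on both strands, was absent from these 7 windows and present in 0.225% of all promoters. The GC box GGGCGG, also searched on both strands, occurred 4 times at Dhh, 2 times each at Ihh, Hhip and Gli3 and once each at Ptch1 and Gli2, was absent at Smo, and was present in 32.7% of all promoters. With no GLI site found the motifs could not overlap, and a match of letters does not show binding.

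Depth ranged from 6741244 to 47903462 reads per library (median 16875025). The deposited values are log2 RPM per kb, reads scaled to the library size and to the length of the region, and between 18 and 10928 reads lay behind a member's value in a library other than IgG–IgG. IgG–IgG, a reChIP without a specific antibody, was made once in E14 replicate 1 and once in WT clone 57. H3K4me3 regions were listed at the promoters of 7 of 7 embryonic stem cell markers in the E14 and in the WT table, with log2 enrichment over IgG–IgG from 0.89 to 3.3 in E14, but also at 2 of 3 primitive endoderm and 3 of 3 fibroblast markers (0.95 to 1.3 and 1.32 to 1.73), so H3K4me3 at a promoter did not separate these cell types. At Dppa2 the H3K4me3 values were 1.90 and 0.77 in WT and 2.08 and 1.34 in DKO clones, and at Dppa4 2.34 and 1.45 against 2.39 and 1.56. Whether these regions lie in the deleted part is not given in the sources used here, so they do not check the genotype.

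The first question was whether the Hedgehog genes had a region of each kind. All 9 had a K4-K27, a K27-K4 and a total H3K4me3 region in E14 cells, while the total H3K27me3 table held a region for 4 of them, Shh, Ihh, Ptch1 and Smo, and for 2 with a window from 1 kb before to 100 bp after a start site. The Ptch1 and Smo regions met the window of the main count by 160 and 397 bp and covered no start site. Of all protein-coding genes, 63.7% had a K4-K27, 71% a K27-K4, 58.2% an H3K4me3 and 13.8% an H3K27me3 region at a start site in E14 cells. The E14 lists held 24540 K4-K27 and 36235 K27-K4 regions, more than the filtered peaks that the study counted. Of these, 21857 had the same coordinates in both lists, so a listing in both orders is not independent. A listed region is thus not by itself a call of bivalency. In WT clones all 9 members had a K4-K27 and a K27-K4 region, against 65.4% and 37.1% of protein-coding genes. There, 7 members had an H3K4me3 region, all but Shh and Ihh, and 6 had an H3K27me3 region, all but the Gli factors (65.6% and 17.5% of protein-coding genes). In DKO clones 9 had a K4-K27 region, 8 a K27-K4 region (not Gli2), 6 an H3K4me3 region (not Shh, Ihh or Gli3) and 5 an H3K27me3 region (not Ptch1 or the Gli factors), against 63.2%, 35.3%, 61.1% and 19.6%. A gene missing from a table was not read as a change, and the values were compared instead.

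**Figure D1:**
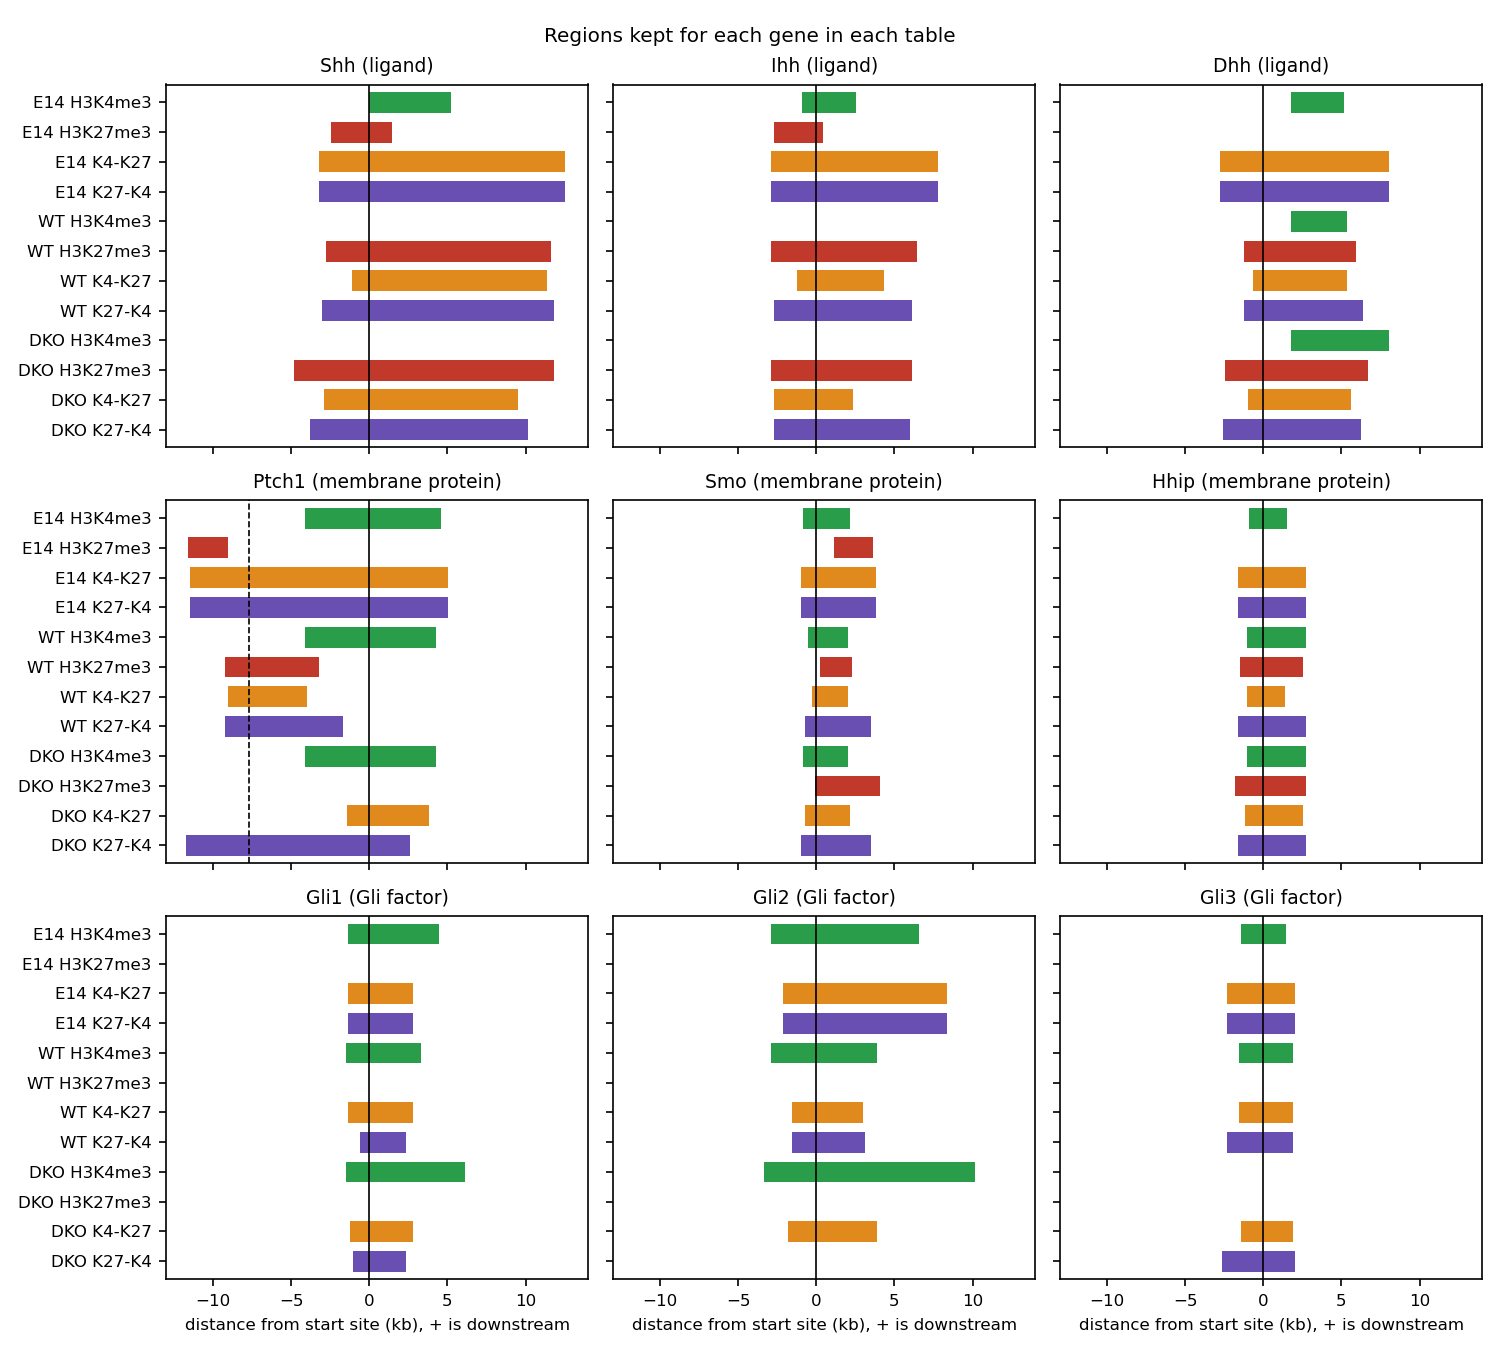
Regions kept for each Hedgehog gene in each of the 12 tables, drawn as bars along the distance from the gene's start site in kb, with downstream positive; green is H3K4me3, red H3K27me3, orange K4-K27 and purple K27-K4, the solid line marks the start site and the dashed line the upstream start site of Ptch1. The Gli factors had no H3K27me3 region in any table, and the regions of Ptch1 covered both, one or neither of its start sites.

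The E14 K4-K27 and K27-K4 tables gave the same coordinates for each member. These regions extended over whole ligand genes and stayed near the first exon in most of the others. At Shh the region was chr5:28454551-28470300 (15750 bp), over exons 1 to 3 and the introns between them. At Ihh it was chr1:74943901-74954550 (10650 bp) and at Dhh chr15:98890501-98901300 (10800 bp), each also over exons 1 to 3. The Ptch1 region, chr13:63560701-63577200 (16500 bp), covered both of its annotated start sites, which are 7725 bp apart, and exons 1 and 2. Smo had chr6:29734501-29739300 (4800 bp, exon 1) and Hhip chr8:80055301-80059650 (4350 bp, exon 1). Among the Gli factors, Gli1 had chr10:127338751-127342950 (4200 bp, exons 1 and 2), Gli2 chr1:119045251-119055750 (10500 bp, exon 1) and Gli3 chr13:15461401-15465750 (4350 bp, exon 1). The regions of Shh, Ptch1 and Gli3 also overlapped the start sites of the noncoding or predicted genes 9530036O11Rik, LOC102632415 and Gm6556. The H3K4me3 region of Dhh in E14 and in the clones began 1740 bp downstream of its curated start site, over exons 2 and 3. Because widths differ, a value per kb is a mean over a longer stretch at the ligands, Ptch1 and Gli2 than at the other genes.

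In E14 cells the ligands Ihh and Shh had the highest total H3K27me3 of the members and the Gli factors the lowest. At Ihh total H3K27me3 was 0.87 and 0.76 (log2 RPM per kb, replicates 1 and 2), at percentiles 99.8 and 99.4 of the 14261 promoter regions shared by both reChIP tables, and at Shh it was 0.61 and 0.52. Dhh, at 0.28 and 0.17, overlapped Smo (0.29 and 0.24) and Hhip (0.09 and 0.21) and was thus not apart from the membrane proteins. Ptch1 had 0.01 and -0.20 over its full region. Gli3 lay below all of these at -0.28 and -0.31, and Gli2 (-1.13 and -1.70) and Gli1 (-1.52 and -2.11) were below Gli3 without overlap. The lowest value of each replicate, at Gli1, rested on 18 and 31 reads, and these values lay at percentiles 25.6 and 16.3, below the promoter medians of -0.72 and -0.88. The value per kb of IgG–IgG at Gli1 was -0.46, so total H3K27me3 there did not exceed this background, and at Gli2 it was also below IgG–IgG (-0.75 and -1.32 relative to it).

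Total H3K4me3 ran the other way in its extremes. Gli1 had 1.18 and 1.60 and Gli2, 1.07 and 1.43, and these overlapped each other but lay above the other 7 genes. Ptch1 (0.71 and 1.05), Smo (0.70 and 0.91), Dhh (0.73 and 0.82) and Gli3 (0.51 and 0.75) overlapped their neighbours in the order. Hhip had 0.37 and 0.58. The lowest were Shh, 0.41 and 0.15, and Ihh, 0.34 and 0.18, which did not differ from each other beyond their spread, and Shh overlapped Hhip. The promoter medians were 0.55 and 0.90, so the values of Shh, Ihh, Hhip and Gli3 were below them in both replicates and those of Gli1, Gli2, Ptch1 and Smo above.

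In both E14 reChIPs the ligands had the highest values within a replicate and Gli1 and Gli2 the lowest. In K4-K27, Shh had 2.75 and 2.80, Ihh 2.63 and 2.70 and Dhh 2.18 and 2.91. The membrane proteins had 1.73 and 2.35 (Ptch1), 1.63 and 2.47 (Smo) and 1.57 and 2.61 (Hhip), and Gli3 had 1.85, above them, and 2.52, within their range. Gli1 (-0.43 and 1.59) and Gli2 (-0.11 and 1.13) were below the other 7 members in both replicates. In replicate 1 they were also below the promoter median of 0.29, with 31 reads at Gli1, and in replicate 2 Gli1 was above and Gli2 below the median of 1.44. Relative to IgG–IgG, Gli1 had 0.03 and 2.05 and Gli2 0.28 and 1.51, so Gli1 in replicate 1 lay at this background.

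In K27-K4 the ligands had 2.35 and 3.86 (Shh), 2.26 and 3.95 (Ihh) and 2.43 and 4.00 (Dhh), percentiles 95 to 98.1 of the shared promoter regions. Ptch1, Smo, Hhip and Gli3 ranged from 2.04 to 2.14 in replicate 1 and from 3.43 to 3.66 in replicate 2. Gli1, with 1.53 and 2.17, and Gli2, with 0.74 and 2.01, were again the lowest. The spread between replicates exceeded the steps between most genes here, because replicate 2 was higher at each member, so the order holds within a replicate and not across them. The E14 IgG–IgG values of the members ran from -0.80 at Gli3 to -0.08 at Ihh.

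**Figure D2:**
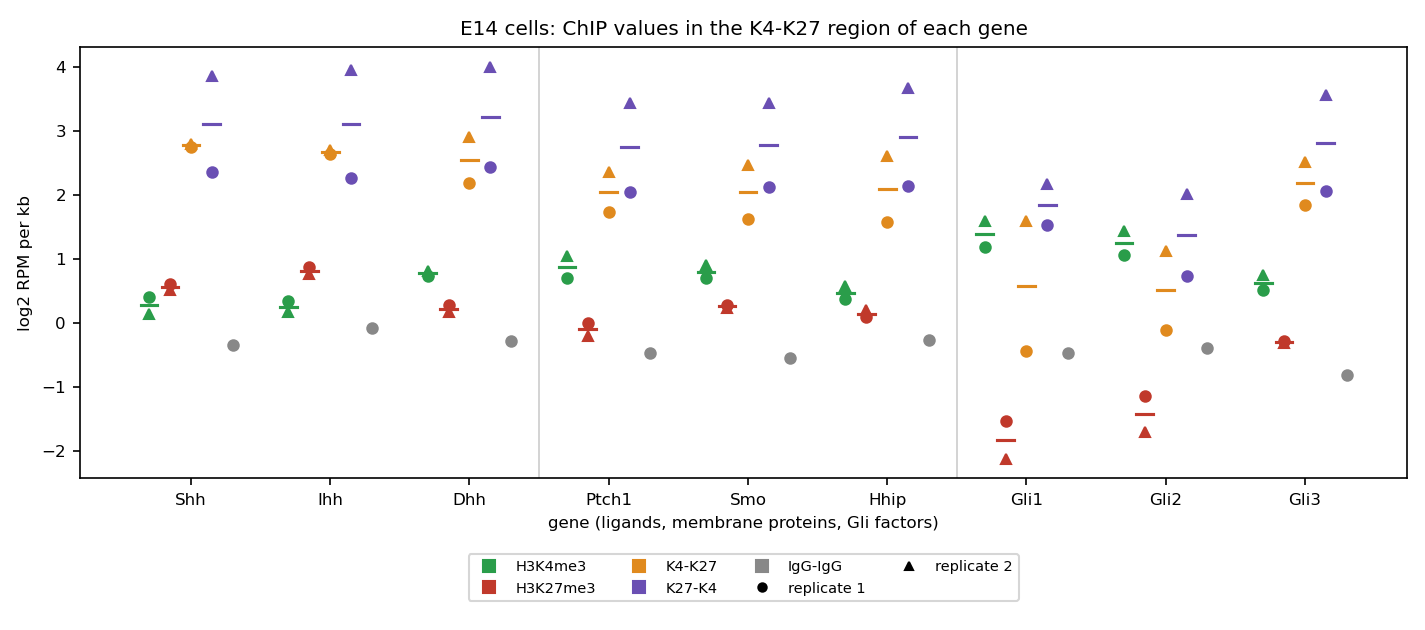
Log2 RPM per kb of each Hedgehog gene in its E14 K4-K27 region, for 4 ChIPs and IgG–IgG, with circles for replicate 1, triangles for replicate 2 and bars for the mean; vertical lines part ligands, membrane proteins and Gli factors. Total H3K27me3 (red) falls from Ihh at 0.87 and 0.76 to Gli1 at -1.52 and -2.11.

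This order of roles was then read in all 6 cell samples in the same E14 regions. Total H3K27me3 was higher at every ligand than at every Gli factor in 6 of 6 libraries, and higher at every membrane protein than at Gli1 and Gli2 in 6 of 6. Every ligand was above every membrane protein in 4 of 6, the clones, and in E14 cells Dhh was below Smo. In K27-K4 every ligand exceeded every Gli factor in 4 of 6 libraries and in K4-K27 in 2 of 6, and in the other libraries Gli3 was above at least 1 ligand. In K4-K27 of the DKO clones Gli1, at 3.15 and 2.73, was above every ligand (at most 2.74 and 2.08). Every membrane protein was above Gli1 and Gli2 in 6 of 6 K27-K4 but in 3 of 6 K4-K27 libraries. Total H3K4me3 was lower at every ligand than at every Gli factor in 4 of 6 libraries, again the clones. In bulk chromatin, fewer cells that carry a mark and less of the mark per cell cannot be told apart.

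The balance of the marks, total H3K4me3 minus total H3K27me3 on the log2 scale, summarised the same contrast for each gene. In E14 cells it was negative at Shh (-0.20 and -0.37) and Ihh (-0.53 and -0.58) and positive at the other 7 genes. Gli1 had 2.70 and 3.71 and Gli2 2.20 and 3.13, both above the promoter medians of 1.26 and 1.72. Gli3 (0.79 and 1.06), Ptch1 (0.70 and 1.26), Smo (0.41 and 0.66), Dhh (0.45 and 0.65) and Hhip (0.28 and 0.38) were between zero and those medians. Over the 81533 distinct regions of the E14 tables, limma called Gli1, at a difference of 3.20 (SE 0.36, adjusted p = 3.3e-04), and Gli2, at 2.66 (SE 0.34, adjusted p = 4.2e-04), higher in H3K4me3, and no member lower. That is 2 of 9 members, against 38.7% of all regions called higher and 19.2% called lower, so a call towards H3K4me3 does not set the members apart. The difference at Gli3 was 0.93 (limma, SE 0.27, adjusted p = 0.017) and missed the minimum of 1, and at Smo it was 0.54 (SE 0.24, adjusted p = 0.080). Shh had -0.28 (SE 0.26, adjusted p = 0.351 in limma) and Ihh -0.55 (SE 0.24, adjusted p = 0.073), so neither tilt towards H3K27me3 passed, although Ihh was called with each library centred on its median (-1.01, adjusted p = 0.006) and under quantile normalisation (-1.0, adjusted p = 0.013). The difference compares 2 antibodies and thus orders genes within a sample, without giving the ratio of the marks.

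The WT clones gave the same call for Gli1 and Gli2 and added Gli3. Gli1 had 4.15 and 2.93 (clones 57 and 58), Gli2 3.16 and 2.27 and Gli3 2.71 and 1.56. In limma the differences were 3.54 (SE 0.73, adjusted p = 7.3e-06), 2.71 (SE 0.74, adjusted p = 8.8e-04) and 2.13 (SE 0.76, adjusted p = 0.013). These are 3 of 9 members, against 33.5% of all regions called higher and 10.7% called lower. The WT promoter medians were 2.49 and 1.56, with Gli1 and Gli2 above both and Gli3 close to them. Total H3K27me3 in both WT clones was below IgG–IgG at Gli1 (-0.74 and -0.69 relative to it) and Gli3 (-0.24 and -0.39). All 3 calls were lost when either WT H3K27me3 library was left out, which leaves 1 library of that mark, although the differences stayed between 2.06 and 3.57. Under quantile normalisation Gli3 also lost its call, with a difference below 1. Shh had -1.09 and -1.20 and Ihh -1.08 and -1.09, differences of -1.14 (SE 0.77) and -1.09 (SE 0.76) that limma did not call (adjusted p = 0.22 and 0.245). With the libraries centred they were -1.77 and -1.71 and both were called (limma, adjusted p = 4.6e-04 and 6.9e-04). In these clones total H3K4me3 relative to IgG–IgG was 0.65 and -0.23 at Shh and 0.73 and -0.07 at Ihh. At both genes clone 58 thus lay below this background. Smo had 1.89 and 1.29, a difference of 1.59 (SE 0.78, adjusted p = 0.084 in limma).

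WT clone 57 was above clone 58 by more than 1 on the log2 scale in total H3K4me3 at 7 of the 9 members, so the clone was also entered as a term. With this pairing of the totals by clone (replicate block), limma called Shh (-1.14, adjusted p = 0.028) and Ihh (-1.09, adjusted p = 0.040) towards H3K27me3 and Smo (1.59, adjusted p = 8.6e-04) and Ptch1 (1.20, adjusted p = 0.015) towards H3K4me3, against 10.7% of regions called lower and 35.7% higher. The balance of Smo (1.89 and 1.29) and Ptch1 (1.69 and 0.71) lay below the promoter medians of 2.49 and 1.56 in both clones. In DKO clones 43 and 53 the balance was -1.26 and -1.03 at Shh, -1.61 and -1.30 at Ihh and -0.27 and -0.40 at Dhh. Ptch1, Smo and Hhip had values from 0.28 to 1.21 and the Gli factors from 1.57 to 4.26. Gli3, at 1.58 and 1.57, lay below the DKO promoter medians of 2.01 and 1.62. Dhh had 0.45 and 0.65 in E14 cells and -0.06 and -0.36 in WT clones, and lay below the promoter median in each of the 6 samples.

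**Figure D3:**
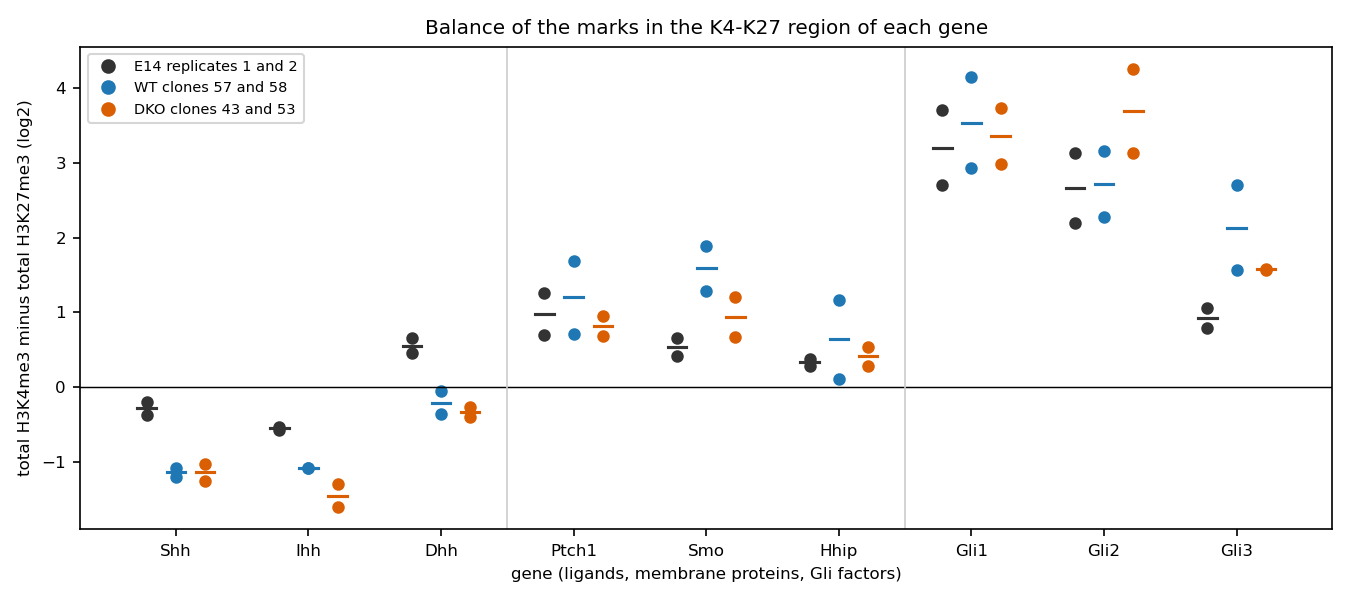
Total H3K4me3 minus total H3K27me3 (log2) in the E14 K4-K27 region of each Hedgehog gene, with a point per replicate or clone, a bar for the mean and the horizontal line at equal values. Shh and Ihh lie below zero in all 6 samples, and Gli1 and Gli2 lie at 2.20 or above.

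The order of the antibodies was compared next, since a bivalent nucleosome should be recovered in either order. In E14 cells K27-K4 exceeded K4-K27 in the mean at each member, by 0.33 at Shh to 1.27 at Gli1, against a median of 0.70 over the 21857 shared regions. At Gli1 the values were -0.43 and 1.59 in K4-K27 against 1.53 and 2.17 in K27-K4, and they overlapped (difference 1.27, SE 0.97, adjusted p = 0.829 in limma). At Shh and Ihh, K27-K4 was the lower one in replicate 1 (2.35 against 2.75 and 2.26 against 2.63) and the higher one in replicate 2. The orders overlapped at all 9 members, against 15.1% of regions apart with K27-K4 higher and 0.824% with K27-K4 lower. None of the 9 members and 0% of all regions were called by limma, with 55 regions higher and 0 lower at an unadjusted p under 0.05. With the replicate number as a term (replicate block), which stands for the sequencing batch, limma called 1523 regions higher, 6.97%, among them Gli1 alone of the members (adjusted p = 0.027). Centring each library on its median moved the difference over all regions from 0.70 to 0.02, and those of Shh, Ihh, Dhh and Gli3 were then zero or below.

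The main comparison asked whether loss of Dppa2 and Dppa4 changed the marks at these genes. No member was called in any ChIP. In simulated data the same fits recovered a planted log2 shift of 3 in 41.5% (H3K4me3), 90% (H3K27me3), 31% (K4-K27) and 49% (K27-K4) of changed regions. The absence of a call thus does not show that a member was unchanged. For total H3K4me3, 7 members had a region in the clone tables and their DKO minus WT differences ran from -0.35 at Smo to 0.29 at Gli2 (SE 0.73 to 0.88), with adjusted p of 1 in limma throughout and 2.72% of all 64063 regions called. WT and DKO clones overlapped at each of the 7, while the groups were apart in 17.9% of all regions with DKO higher and in 12.6% with DKO lower. The 95% intervals of these differences reached as far as -2.08 and 1.96. At Shh and Ihh, which had no H3K4me3 region in the clones, the E14 regions gave 1.10 and 0.21 in WT against 0.60 and 0.68 in DKO clones, and 1.06 and 0.26 against -0.19 and 0.23. The Ihh values did not overlap in this K4-K27 region (difference -0.64, adjusted p = 0.990 in limma, where 3.14% of the regions of the E14 tables were called), but overlapped in the narrower E14 H3K4me3 region (1.91 and 0.84 against 0.74 and 1.27, difference -0.36) and in the E14 H3K27me3 region (difference -0.34). Relative to IgG–IgG, Ihh in the K4-K27 region had 0.73 and -0.07 in WT and -0.51 and -0.10 in DKO clones. Shh had 0.65 and -0.23 against 0.15 and 0.23. Apart from WT clone 57, these values lay near or below this background.

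Total H3K27me3 was measured at 6 members in the clone tables, with differences from -0.27 at Ihh to 0.50 at Hhip (SE 0.41 to 0.43) and adjusted p from 0.610 to 0.994 in limma, where 2.75% of 53286 regions were called. Hhip had 1.05 and 0.68 in WT against 1.42 and 1.31 in DKO clones and was the 1 member of 6 whose groups did not overlap, against 26% of all regions in this direction and 18.5% in the other. At the ligands WT clone 57 was the highest sample and clone 58 the lowest (2.29 and 1.5 at Shh, 2.30 and 1.48 at Ihh, 2.32 and 1.55 at Dhh), with the DKO clones between them. The Gli factors, read in the E14 regions, had -0.95 and -0.90 against -0.84 and -0.48 at Gli1, -0.23 and -0.68 against -1.46 and -0.82 at Gli2, and 0.13 and -0.02 against 0.64 and 0.38 at Gli3. None was called, against 1.49% of the regions of the E14 tables. Relative to IgG–IgG, Gli1 had -0.74 and -0.69 in WT and -0.62 and -0.27 in DKO clones and Gli2 0.42 and -0.04 against -0.81 and -0.18, so all but 1 of these values were below this background and no direction was read at either gene. Gli3 was also below it in WT clones, at -0.24 and -0.39, and had 0.27 and 0.00 in DKO clones.

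The reChIPs gave the largest differences, at Ihh. In K4-K27, Ihh had 3.58 and 3.37 in WT against 2.59 and 1.94 in DKO clones, a difference of -1.21 (SE 0.61, 95% interval -2.40 to -0.02), and in K27-K4 it had 3.74 and 3.00 against 2.28 and 2.44, a difference of -1.01 (SE 0.52). The groups did not overlap in either order, yet neither difference was called (adjusted p = 0.306 and 0.280 in limma). These regions are those listed for WT clones, and the DKO K4-K27 region lay further upstream. In the wider E14 region Ihh had 2.76 and 2.58 against 2.00 and 1.33 in K4-K27. It had 3.48 and 2.75 against 2.07 and 2.22 in K27-K4 there, again without overlap. Without the K27-K4 library of WT clone 58 the second difference was -1.38 and was called (adjusted p = 0.004 in limma), but this refit left 1 WT library, assumed to vary like the DKO clones that alone gave the spread, and it called 8630 of 59260 regions against 1341 with all libraries. Without the library of WT clone 57 the Ihh difference was -0.64 (limma, adjusted p = 0.271), and under quantile normalisation also -0.64 (adjusted p = 0.089), neither called. Shh was also lower without overlap in both orders, 3.45 and 3.12 against 2.86 and 2.34 in K4-K27 and 3.67 and 2.97 against 2.93 and 2.68 in K27-K4, and it was not called (adjusted p = 0.696 and 0.601 in limma). Dhh, the third ligand, overlapped in both.

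Gli1 and Gli2 were apart between genotypes in some reChIPs, while Gli3 overlapped in both orders. In K4-K27, Gli1 had 2.39 and 2.23 in WT against 3.15 and 2.73 in DKO clones (difference 0.64, SE 0.60, adjusted p = 0.727 in limma) and Gli2 2.76 and 2.53 against 3.21 and 2.78, both higher without overlap, but in the wider E14 region Gli2 overlapped (2.16 and 1.86 against 2.44 and 2.08). In K27-K4, Gli1 overlapped (1.94 and 1.79 against 1.56 and 2.06) and Gli2 was lower, 1.76 and 1.47 against 0.90 and 1.29. Over all 9 members the K4-K27 differences ran from -1.21 to 0.64 and the K27-K4 differences from -1.01 to 0.02, with 1.19% and 2.26% of all regions called. Members without overlap numbered 2 lower and 2 higher of 9 in K4-K27, against 19.2% and 19.7% of all regions, and 3 lower and 0 higher in K27-K4, against 30.8% and 21.1%. The difference between the orders was tested as the interaction of genotype and order over the shared E14 regions. It ran from -0.62 at Gli1 and Gli2 to 0.39 at Gli3, with adjusted p of 1.000 in limma and 0.00458% of regions called.

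**Figure D4:**
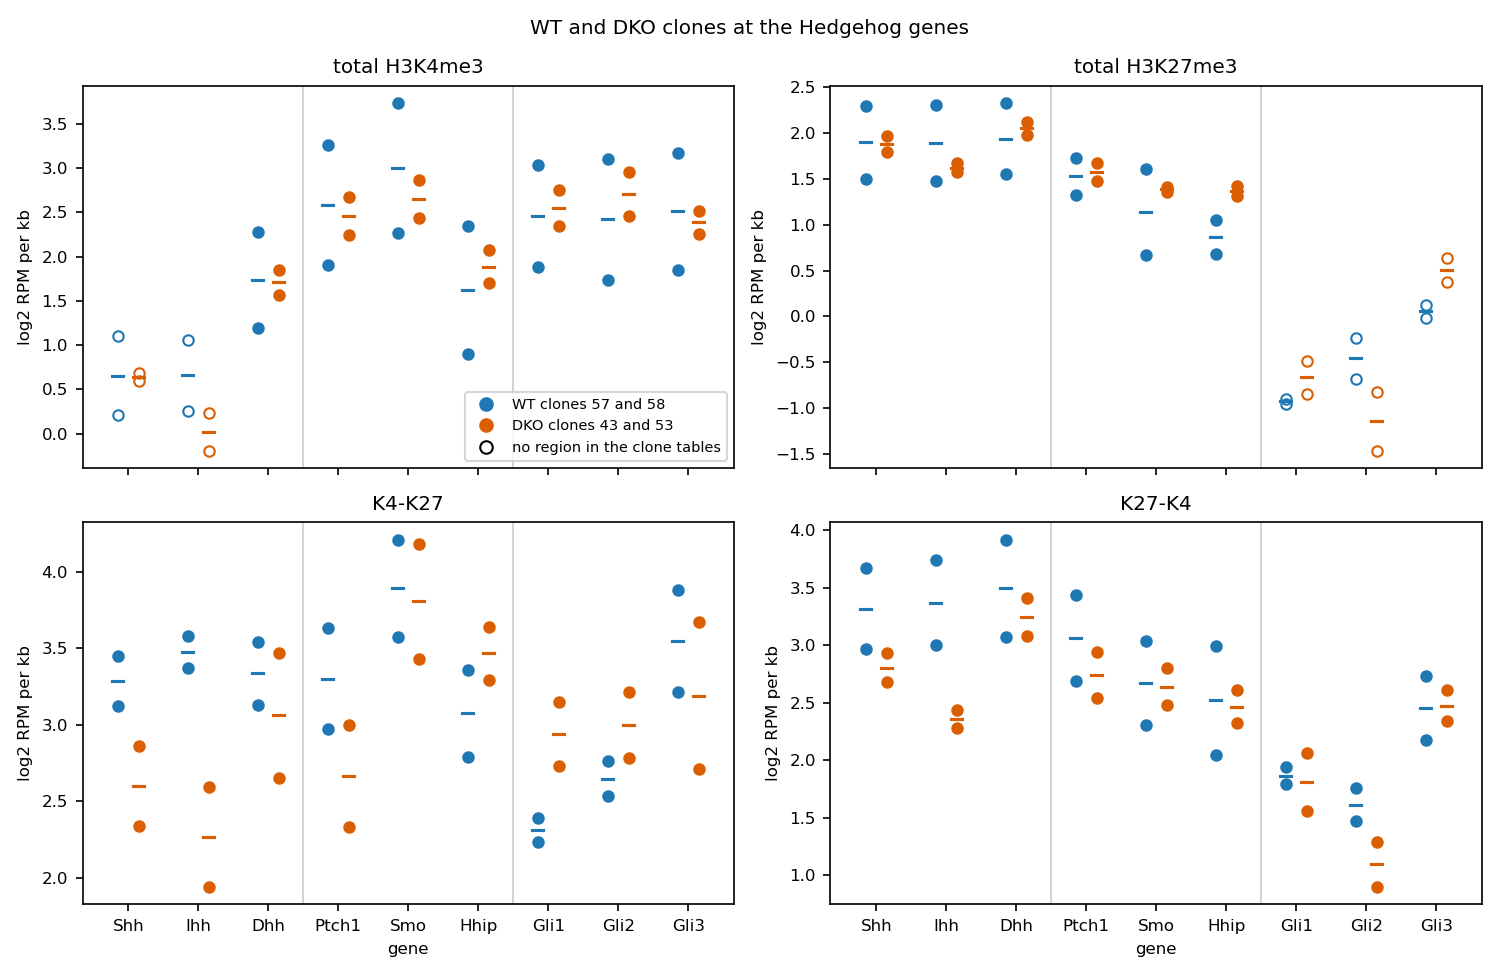
Log2 RPM per kb at each Hedgehog gene in WT clones 57 and 58 (blue) and DKO clones 43 and 53 (orange) for 4 ChIPs, with bars for the means; filled points come from the region of the WT clone table and open points from the E14 region where the clone tables list none. Ihh is the gene with the widest gap between genotypes in K4-K27, 3.58 and 3.37 against 2.59 and 1.94, and in K27-K4.

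Ptch1, the receptor and a target of the pathway, had regions at different positions in the tables. RefSeq places the start of one transcript at position 63565735 of chromosome 13 and of another at 63573460, upstream since the gene is on the minus strand. In E14 cells the H3K4me3 table held chr13:63561151-63569850 over the downstream start, where total H3K4me3 was 1.03 and 1.52 and total H3K27me3 -0.72 and -1.09. The H3K27me3 table held chr13:63574801-63577350, which lies upstream of both start sites and covers neither, where H3K4me3 was -0.60 and -0.99 and H3K27me3 0.73 and 0.60. These regions were called on one of the marks compared, so the contrast is a description and not a test. K27-K4 was 2.01 and 3.39 in the first and -0.02 and 0.85 in the second, and K4-K27 1.16 and 2.19 against 0.86 and 0.67.

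In the clones the table regions had other edges. Over the downstream start (chr13:63561451-63569850) total H3K4me3 was 3.26 and 1.91 in WT and 2.67 and 2.24 in DKO clones, and total H3K27me3 -0.05 and -0.24 against 0.54 and 0.70. Over the upstream start (chr13:63568951-63574950) H3K4me3 was 1.85 and 0.82 against 0.87 and 0.76, and H3K27me3 1.73 and 1.32 against 1.67 and 1.47. K27-K4 was 2.22 and 1.85 against 2.80 and 2.6 at the downstream start, higher in DKO clones without overlap, and 3.67 and 2.91 against 3.00 and 2.70 at the upstream start. In the E14 H3K4me3 region over the downstream start, limma gave a DKO minus WT difference of 0.77 for total H3K27me3 (SE 0.38, 95% interval 0.02 to 1.52, adjusted p = 0.493) and 0.65 for K27-K4 (SE 0.43, adjusted p = 0.617), neither called, with 1.49% and 2.25% of the regions of the E14 tables called. The K4-K27 region kept by overlap lay over the upstream start in WT and over the downstream start in DKO clones. The values in these regions were 3.63 and 2.97 against 3.00 and 2.33, and 3.91 and 3.07 against 4.05 and 3.14, and both overlapped.

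**Figure D5:**
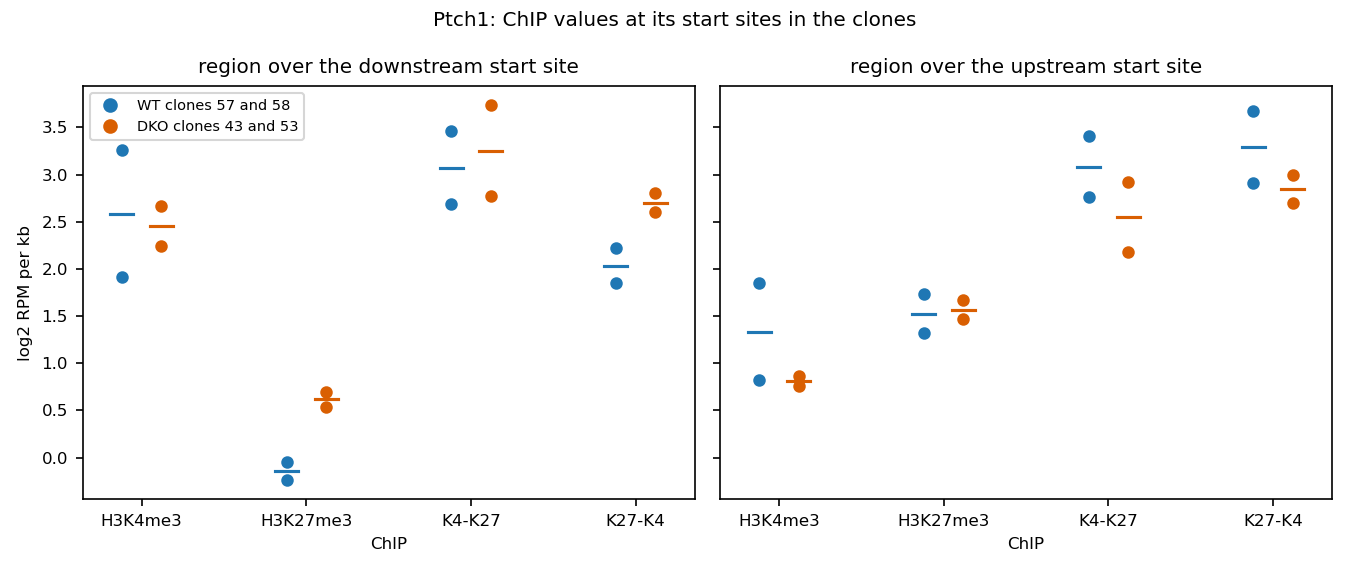
Log2 RPM per kb for 4 ChIPs at Ptch1 in WT clones 57 and 58 (blue) and DKO clones 43 and 53 (orange), in the region over the downstream start site (left) and over the upstream start site (right), with bars for the means. Total H3K27me3 over the downstream start is -0.05 and -0.24 in WT and 0.54 and 0.70 in DKO clones, and over the upstream start the genotypes overlap.

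Another 31 genes of the pathway were read in the same way, 8 that act in ligand release or as receptors and co-receptors, 13 in transduction and 10 targets or downstream genes. In E14 cells 30 had a K4-K27, 31 a K27-K4, 26 an H3K4me3 and 10 an H3K27me3 region. In the balance of the totals, limma called 16 of 31 higher in H3K4me3 and 0 lower, in E14 cells and again in WT clones, with medians of 1.18 in E14 cells and 2.24 in WT clones against 0.37 and 0.36 over all regions, which include those called on H3K27me3 alone. The promoter medians were 1.26 and 1.72 in E14 replicates and 2.49 and 1.56 in WT clones, so the list lay below both E14 promoter medians and between those of the WT clones. Of all regions 38.7% were called higher and 19.2% lower in E14 cells, and 33.5% and 10.7% in WT clones. The 16 genes were 4 of 8 receptor and release genes, 10 of 13 transduction genes and 2 of 10 targets. The targets, many of them developmental transcription factors, had a median of -0.16 in E14 cells and -0.88 in WT clones. Among the larger E14 differences called were those at the kinases Csnk1a1 (3.63), Gsk3b (3.54) and Stk36 (3.34), and the proliferation factor Mycn (2.96). Evc and Evc2, neighbours encoding partner proteins of the cilium, shared 1 region and so 1 value. Among the larger differences called in WT clones were those at Csnk1a1 (4.88), Stk36 (4.72), Gsk3b (4.37) and Iqce (4.17), a cilium gene.

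DKO and WT clones differed by no call in these 31 genes either. For the totals, limma called 0 of 30 genes in H3K4me3 and 0 of 14 in H3K27me3, with median differences of 0.01 and -0.01 against 0.13 and 0.11 over all regions, of which 2.72% and 2.75% were called. In the reChIPs it called 0 of 31 in K4-K27 and 0 of 23 in K27-K4, with medians of -0.24 and -0.32 against -0.01 and -0.15 over all regions, of which 1.19% and 2.26% were called, so 0 calls do not set the list apart. The targets had medians of -0.42 in each reChIP order. The members' medians were -0.02 in H3K4me3, 0.08 in H3K27me3, -0.28 in K4-K27 and -0.25 in K27-K4.

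Promoter regions with a profile like that of a member were sought over 24 libraries (IgG–IgG left out) in 17493 promoter regions of the E14 K27-K4 table, by the Euclidean distance of their log2 values summed over libraries. Shh was nearest to Elfn1 at 0.42. Dhh was nearest to the region of C1ql4 and Dnajc22 (0.56), and Ihh to that of Ppp2r2c and Gm52812 (0.99). Smo was nearest to Usp43 (0.79) and Ptch1 to Micall1 (0.82), and the region of Ptch1 was among the 3 nearest to Smo (0.87). Hhip was nearest to Fbxo32 (1.02), with the co-receptor gene Boc next (1.05). Gli3 was nearest to Fmnl2 (0.88) and Gli2 to the region of Mir182, Mir183 and Mir96 (0.92). This measure describes levels over these libraries.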

How the data were processed

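In total 26 libraries were used, 9 from E14 cells (2 replicates of 4 ChIPs and 1 IgG–IgG) and 17 from clones (2 clones per genotype and ChIP, and 1 IgG–IgG from WT clone 57). The authors trimmed reads with Trim Galore 0.6.6, aligned them to mm10 (GRCm38.p6) with BWA 0.7.13, handled alignments with SAMtools 1.9 and marked duplicates with Picard 2.6.0, versions as in the submitters' processing notes, and quantified alignments with a mapping quality over 20, extended by 200 bp and with duplicates kept, in SeqMonk. The values that the authors deposited are log2 RPM per 1 kb of region without IgG–IgG subtraction. The authors called peaks with EPIC2 and the processing notes also name MACS2, but the edges of the deposited regions do not all fall on the EPIC2 bins, and which step gave these regions is not given in the sources used here. Altogether 240 columns of 12 region lists were read, and 32 columns that belong to no sample of the series were not used. Values stepped in whole reads within 0.02 reads, and 0 reads had been entered as 0.9. Duplicates were kept, so reads are not independent molecules.

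Libraries were compared per region with limma 3.58.1 in R 4.3.3 (lmFit, then eBayes with trend and robust estimation), with Benjamini-Hochberg adjustment over all regions of a comparison. Called were regions with a size of the log2 difference over 1 and an adjusted p below 0.05. The plan had named edgeR, as in the study, for tables of counts, which these are not. The DKO comparisons used the distinct regions of the WT and DKO tables of a ChIP, and the balance used those of the 4 E14 tables, which can overlap each other. P-values and 95% intervals measure the spread between 2 replicates or clones per group. The scripts were tested on simulated data, with a log2 shift of 3 planted in 200 regions per comparison. The share recovered ran from 14% for the E14 orders to 90% for total H3K27me3 in DKO against WT clones. Named were the 9 members, the deleted genes Dppa2 and Dppa4, up to 5 called genes per comparison from the list of 31 with the largest differences, and the genes nearest to each member, of which some are not reported here. Markers of embryonic stem cells, primitive endoderm and fibroblasts were listed as well. The members and lists were chosen with earlier results of these data known.

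Libraries of the same E14 replicate number share a sequencing batch and those of a clone share the cells, as the labels give, so they were taken as pairs. Deviations from group means correlated at 0.41 for the E14 reChIPs, -0.10 for the E14 totals, -0.08 for the WT totals, and 0.03 and 0.02 for the WT and DKO reChIPs. The fits reported have no such block unless stated. Alternatives covered scaling, variance model, offset, a filter on low values, the call rule, the regions, libraries and pairing in the fit, each library left out, the promoter window and the IgG–IgG library, and the interaction over shared E14 regions was added after seeing the data. Gene expression and independent total ChIPs were not analysed here.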

Additional observations from a re-analysis of the deposited data

Results flagged for a closer look

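In 12 cases every replicate of E14 cells lay on one side of zero and both clones of a genotype on the other. These differences were not tested, and E14 cells and clones also differ in sequencing batch. For total H3K4me3 minus total H3K27me3 this held at Dhh, where E14 exceeded WT clones by 0.76 (means 0.55 and -0.21) and DKO clones by 0.89 (0.55 and -0.34). The zero of this difference depends on the scaling of the libraries of both antibodies, and relative to the promoter medians (1.26 and 1.72 in E14 replicates, 2.49 and 1.56 in WT and 2.01 and 1.62 in DKO clones) Dhh was lower in each of the 6 samples.

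For K27-K4 minus K4-K27, E14 exceeded WT clones by 1.07 at Ptch1, 1.10 at Smo, 2.16 at Gli1, 1.92 at Gli2 and 1.45 at Gli3. It exceeded DKO clones by 1.10 at Smo, 1.10 at Hhip, 2.78 at Gli1, 2.54 at Gli2 and 1.06 at Gli3. At Gli1 the mean was 1.27 in E14 cells, -0.89 in WT and -1.51 in DKO clones. The same change of sign was seen in the medians over the shared promoter regions, with 0.72 and 0.88 in E14 replicates, -0.94 and -0.80 in WT and -0.91 and -0.50 in DKO clones.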

How the results depend on the processing

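The members' results came from 58 pairs of gene and comparison, of which 5 were called. Over 671 refits 60 changed sign, 0 of them among the called pairs, 21 gained a call and 7 lost one, among them the following. In the DKO comparisons 374 refits gave 1 gain, Ihh in K27-K4 without WT clone 58 (-1.38), a refit with 1 WT library, in which the DKO clones gave the spread and 8630 of 59260 regions were called. The balance in WT clones lost its call at Gli1 (3.52 and 3.57), Gli2 (2.94 and 2.49) and Gli3 (2.21 and 2.06) without H3K27me3 of clone 57 or 58, and at Gli3 under quantile normalisation (0.98). Centring and quantile normalisation called Ihh in E14 cells (-1.01 and -1.0), and Shh (-1.77 and -2.11) and Ihh (-1.71 and -2.06) in WT clones. Gli3 in E14 was called with no minimum difference (0.93) and without H3K4me3 replicate 1 (1.05), and Smo in WT clones with neither variance trend nor robust estimation (1.59) and without H3K4me3 clone 58 (2.29). The refits without a library left 1 H3K4me3 library, so the H3K27me3 libraries alone gave the spread. With the replicate block Gli1 was called between E14 orders (1.27), and Shh, Ihh, Smo and Ptch1 in the WT balance. The causes were not tested.

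Counts over all regions moved more. DKO against WT in total H3K4me3 had 1745 calls, with 3899 when centred, 3040 under quantile normalisation, 336 without the lowest quartile, 829 in the WT table, 735 with all 16 clone libraries in the fit and 74 to 6018 without a library (6018 without WT clone 58, 74 without DKO clone 53 and 114 without DKO clone 43). Without WT clone 57 it had 1256 higher and 479 lower, against 163 and 1582 with all libraries. Total H3K27me3 had 1468 (520 higher and 948 lower), with 0 when centred, 1 under quantile normalisation, 314 without the lowest quartile, 675 in the WT table, 0 with all clone libraries and 133 to 650 without a library. K4-K27 had 643, with 7715 with neither variance trend nor robust estimation, 1555 in the E14 tables and 7602 with all clone libraries. It had 243 to 558 without a library. K27-K4 had 1341 (16 higher and 1325 lower), with 168 higher and 1006 lower under quantile normalisation, and 482 to 8630 without a library. It had 2277 higher and 1853 lower without WT clone 57, and 3126 and 5504 without clone 58. The E14 orders gave 0 calls and 1523 with the replicate block. The WT balance gave 36055 (27315 higher and 8740 lower), with 25427 and 23784 when centred, 24011 and 26421 under quantile normalisation, and 12761 to 48147 without a library. The E14 balance gave 31522 higher and 15671 lower, with 26252 and 24984 when centred and 24808 and 25370 under quantile normalisation. Centring moved the median over all regions from 0.37 to -0.09 in E14 and from 0.36 to -0.26 in WT clones. The interaction gave 0 calls of 815 regions, with 9 with neither variance trend nor robust estimation and 1 over the shared E14 regions. It also moved when some single libraries were left out.

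With a window from 1 kb before to 100 bp after a start site, 2 members had an E14 H3K27me3 region in place of 4. The members' median enrichment over IgG–IgG was 1.32, 0.50, 2.54 and 3.24 in E14 cells (H3K4me3, H3K27me3, K4-K27 and K27-K4), 1.83, 1.06, 2.62 and 2.64 in WT and 1.71, 1.12, 2.65 and 2.29 in DKO clones. Against the IgG–IgG of the other cells it was 0.74, -0.18 and 2.06 for the first 3 in E14 cells, 2.89 for WT K4-K27, and 2.26, 1.48 and 3.01 for DKO H3K4me3, H3K27me3 and K27-K4, so the sign for E14 H3K27me3 rests on the IgG–IgG library. Without subtraction, relative to the library median, it was 0.53, 0.55, 1.42 and 1.58 in E14 cells, 1.58 for WT K4-K27, and 1.34, 1.24 and 1.67 for DKO H3K4me3, H3K27me3 and K4-K27. Depth limited total H3K27me3 at Gli1 most, at 18 and 31 reads in E14 cells.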

Other observations

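Enrichment over IgG–IgG in the clones depended on a low background at Hhip and Smo. The IgG–IgG value of WT clone 57 was -1.85 at Hhip, from 18 reads, and -0.88 at Smo, so enrichments there were larger than the values per kb alone show. Values are given without subtraction except where an enrichment or a value relative to IgG–IgG is stated.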
